A study of Mus musculus with 12 samples.

Results

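The 44 collagen chains measured on these arrays were taken as 1 gene family and followed through 4 groups of mouse white fat samples. A gene was a member when a probe set was annotated to it alone and its symbol had the form of a collagen alpha chain, such as Col1a1. This gave 47 probe sets for 44 genes, out of 22180 genes in all. For Col1a2, Col5a1 and Col6a1, which had 2 probe sets each, the set with the higher mean over the 12 arrays was kept. By class, 11 chains were fibrillar, 9 network-forming, 6 beaded-filament and 9 fibril-associated (FACIT), and the other 9 were anchoring, transmembrane, multiplexin or unclassed chains.

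All samples came from C57BL/6 mice with no genetic change or treatment named, and age, sex and diet are not given in the sources used here. Whole adipose tissue (AT) and an adipose progenitor preparation (AP) were each profiled from inguinal subcutaneous fat (SAT) and from perigonadal visceral fat (VAT), 3 biological replicates a group. An AP is what was left of the enzymatically released stromal vascular cells after magnetic beads had removed lineage-positive blood cells and CD31+ endothelial cells, so it is a depleted mixture and not a sorted cell type. Several mice supplied the tissue. Which animals gave each replicate is not stated, so a p-value here weighs a difference only against the scatter of these samples, and that scatter may be technical.

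Collagens are trimers of alpha chains wound into a triple helix. Fibrillar collagens I, III and V form the load-bearing fibres of the tissue, type IV forms the sheet of the basement membrane that wraps each adipocyte, and type VI forms beaded microfilaments in the surrounding matrix. FACIT collagens sit on the surface of fibrils, and collagens XV and XVIII join basement membranes to the interstitial matrix. Fibroblast-like stromal cells, which include adipose progenitors, are the main known source of fibrillar and type VI chains in fat.

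Values are the deposited log2 intensities, and a chain was called higher or lower at a Benjamini-Hochberg adjusted p under 0.05 in limma over all 22180 genes. Array medians ran from 4.49 to 4.67, and arrays correlated at 0.987 to 0.994 within groups and at 0.910 to 0.983 between groups. A level of 4.10 served as the mark for near background. It is the 40th percentile of mean intensity when probe sets without a gene are counted too. A filter at this level kept 15753 of the 22180 genes. Of the 44 chains, 43 had a mean above it, Col10a1 being the exception. The labels were set against marker lists through their summed level, the log2 of the summed linear intensity. The progenitor list, 7 of 9 genes measured, ran from 12.96 to 13.54 on AP arrays and from 10.95 to 12.13 on AT arrays, and the adipocyte list from 10.91 to 11.20 on AP and from 14.28 to 14.58 on AT arrays. The AT array of SAT labelled replicate 3 was the highest of its group for 26 of 44 chains, against 5 and 13 for the other 2 arrays. Its progenitor marker sum was 12.13, against 11.31 and 11.04. Other lists differed on it too: the macrophage sum was 12.27, against 11.93 and 11.39, and the B and T cell sum 6.86, against 8.39 and 8.13. By the median deviation of the chains from their group mean this array did not stand alone. This was 0.11 on replicate 3, -0.13 on replicate 1 and 0.00 on replicate 2, and 0.10 on AT replicate 3 of VAT. The main values that rest on AT replicate 3 of SAT are given with it and without it.

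The plot of all chains by array gives the overall picture, and the 3 sections of it that stand out are the fibrillar chains of types I, III and V, the type VI chains, and a small set of type IV, VI and VIII chains on VAT arrays.

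**Figure D1:**
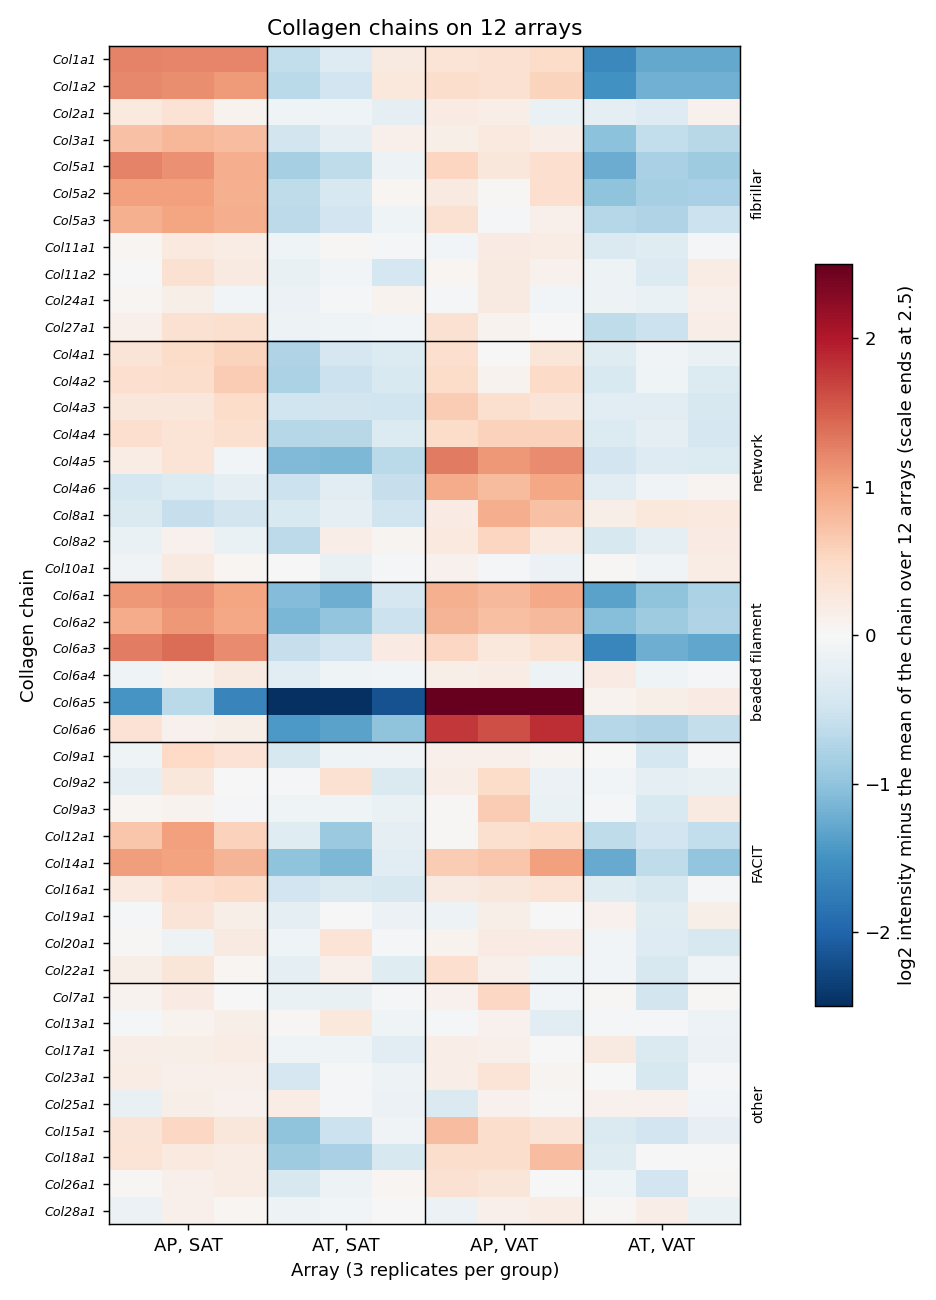
Each row is 1 of the 44 collagen chains, ordered by class, and each column 1 of the 12 arrays, ordered by group. Colour gives the log2 intensity minus that chain's mean over the 12 arrays, with the scale ending at 2.5 either way, and Col6a5 runs from 4.59 on a SAT whole-tissue array to 11.06 on a VAT progenitor array.

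The first question was how the progenitor preparation compares with the whole tissue it came from. In SAT 24 of 44 chains were higher in AP and 0 were lower, 54.5% of the chains, where 32.4% of all genes were called in either direction and 16.1% were called higher. In VAT 26 were higher and 0 lower, 59.1%, against 32.6% of all genes called and 15.8% called higher. The median difference over the 44 chains was 0.44 in SAT and 0.48 in VAT, against 0.03 for all genes in each depot. Groups did not overlap, with every AP array above every AT array, for 29 chains in SAT and 26 in VAT, and every AT array was above every AP array for 0. Over all genes the first held for 23.5% in SAT and 20.5% in VAT, the second for 21.1% and 20.4%, and either for 44.6% and 40.9%. At an unadjusted p under 0.05 limma gave 27 chains higher in SAT and 30 in VAT, and again 0 lower. These 2 comparisons share no arrays, but they share a common spread in the model, and whether they share animals is not stated. In both, 21 chains were higher, which is 87.5% of the SAT set and 80.8% of the VAT set. The matching overlap over all genes was not counted, so this agreement cannot be called particular to collagen chains. Without AT replicate 3 the SAT count was 22. Scaling to 10 housekeeping genes moved the median of all genes from 0.03 to 0.47 in VAT and to 0.10 in SAT, and then 43 chains and 90.3% of all called genes were higher in AP of VAT, in place of 26 chains and 48.4% of called genes.

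Several marker lists moved with the preparation. All 7 measured progenitor markers were higher in AP in SAT and 6 of 7 in VAT, with medians of 1.53 and 1.94. Mural cell markers, of pericytes and smooth muscle, were higher for 6 of 8 genes in SAT and 8 of 8 in VAT, with summed levels of 12.76 to 13.23 on AP and 10.70 to 11.25 on AT arrays. Adipocyte, endothelial and macrophage markers were lower for all 8, 7 and 7 genes in both depots. The 7 immediate early and heat shock genes listed as marks of cell dissociation were all higher in AP, by medians of 5.42 in SAT and 4.97 in VAT. Dissociation and preparation cannot be told apart in this design, and the part of the other cell types in the collagen values was not tested. In samples of many cells, fewer cells of a type and less RNA per cell cannot be told apart either.

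**Figure D2:**
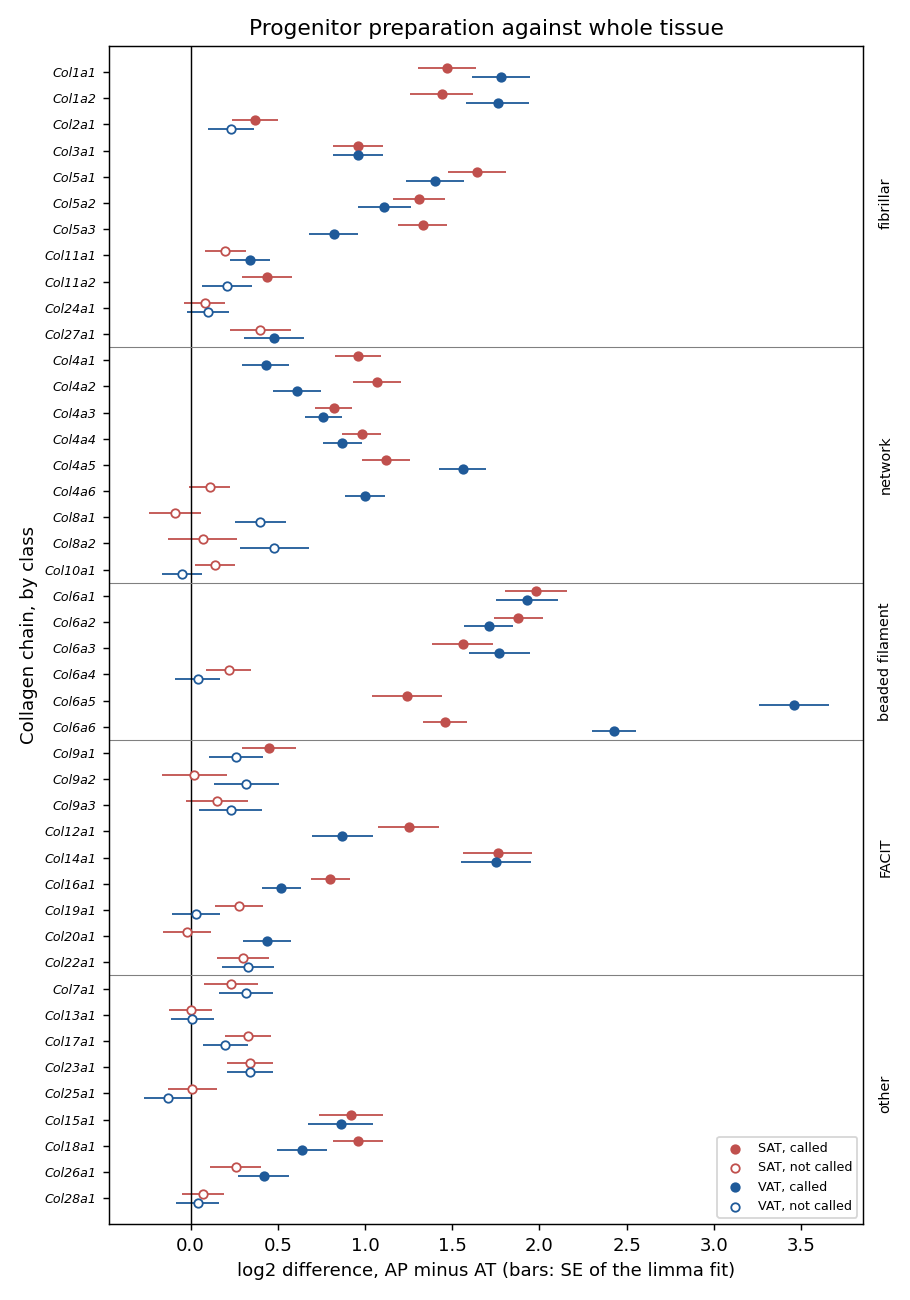
Points give the log2 difference, AP minus AT, of each chain in SAT (red) and VAT (blue), with the standard error of the limma fit as bars and filled points for called chains. The largest values are those of Col6a5 and Col6a6 in VAT, at 3.46 and 2.43, and no filled point lies left of 0.

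Among fibrillar chains, 8 of 11 were higher in AP in each depot, with medians of 0.96 in SAT and 0.82 in VAT. Type I collagen, the chief protein of the fibre, was read through both its chains. Col1a1 gave 12.68, 12.66 and 12.65 on the 3 AP arrays from SAT and 10.82, 11.12 and 11.65 on the AT arrays. In VAT the AP arrays gave 11.77, 11.81 and 11.90 and the AT arrays 9.83, 10.16 and 10.16. AP was above AT on every array in both depots, by 1.47 (SE 0.164, 2.76-fold, adjusted p = 3.61e-06) in SAT and 1.78 (SE 0.164, 3.43-fold, adjusted p = 5.22e-07) in VAT. Its partner Col1a2 read 12.23, 12.20 and 12.09 in AP and 10.36, 10.56 and 11.29 in AT of SAT. In VAT it read 11.47, 11.41 and 11.58 in AP and 9.52, 9.83 and 9.84 in AT of VAT. The 2 chains of this trimer moved alike: Col1a2 differed by 1.44 (SE 0.181, adjusted p = 1.28e-05) in SAT and 1.76 (SE 0.181, adjusted p = 1.75e-06) in VAT. Without AT replicate 3 the SAT differences were 1.69 for Col1a1 and 1.71 for Col1a2.

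Col3a1, the homotrimer of soft and stretchable tissue, read 12.36, 12.46 and 12.41 in AP and 11.17, 11.42 and 11.77 in AT of SAT. In VAT it read 11.78, 11.88 and 11.81 in AP and 10.62, 11.02 and 10.94 in AT of VAT. The gap was 0.96 in both depots, with adjusted p of 5.97e-05 in SAT and 6.26e-05 in VAT, and the groups did not overlap. Type V collagen sits in the core of type I fibrils and sets their diameter, and all 3 of its chains were higher in AP. Col5a1 read 10.13, 10.03 and 9.80 in AP against 8.05, 8.24 and 8.75 in AT of SAT, a difference of 1.64 (SE 0.167, 3.12-fold, adjusted p = 1.42e-06). In VAT it read 9.43, 9.16 and 9.31 in AP and from 7.64 to 8.07 on the 3 AT arrays of VAT, a difference of 1.40. A second, dimmer probe set of Col5a1 gave 0.59 in SAT and 0.69 in VAT, so the size of this difference depended on the probe set. Col5a2 read 9.31, 9.31 and 9.17 in AP and 7.65, 7.88 and 8.32 in AT of SAT and 8.50, 8.31 and 8.70 in AP and 7.27, 7.45 and 7.46 in AT of VAT. It rose by 1.31 and 1.11, with no overlap. Col5a3, the rarer partner chain, read 8.93, 9.03 and 8.94 in AP and 7.39, 7.57 and 7.94 in AT of SAT and 8.42, 7.99 and 8.16 in AP and 7.33, 7.28 and 7.51 in AT of VAT. It rose by 1.33 and 0.82, again with no overlap. Without AT replicate 3 the SAT differences were 1.12 for Col3a1 and 1.84 for Col5a1. The cartilage chains of this class gave small values: Col2a1 0.37 and Col11a2 0.44 were called in SAT, and Col11a1 0.34 and Col27a1 0.48 in VAT, with AP and AT arrays overlapping for the last pair. None of these 4 calls was firm: Col2a1 was lost without any 1 array of its depot other than AP replicate 3 (adjusted p 0.0703 to 0.158), Col11a2 without AP replicate 2 or 3 or AT replicate 1 or 3 (0.0547 to 0.133), Col11a1 without AP replicate 2 or 3 or AT replicate 1 or 2 (0.0927 to 0.132), and Col27a1 without AP or AT replicate 1 or 2 (0.0768 to 0.196) or without any 1 of 5 SAT arrays, whose spread it shares (0.0501 to 0.0549). Col24a1 was not called in either depot, at 0.08 and 0.10.

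Of the beaded-filament chains of type VI, 5 of 6 were higher in AP in each depot, with the largest class medians, 1.51 in SAT and 1.85 in VAT. Col6a1 and Col6a2 are part of every type VI monomer, which takes as its last chain Col6a3 or one of the later-described Col6a4, Col6a5 and Col6a6. Col6a1 read 11.63, 11.68 and 11.53 in AP and 9.45, 9.33 and 10.12 in AT of SAT. In VAT it read 11.43, 11.36 and 11.49 in AP and 9.21, 9.53 and 9.76 in AT. The groups lay more than 1 unit apart in each depot, with differences of 1.98 (SE 0.177, 3.94-fold, adjusted p = 3.49e-07) in SAT and 1.93 in VAT. Col6a2 read 10.49, 10.66 and 10.53 in AP and 8.43, 8.58 and 9.04 in AT of SAT and 10.43, 10.32 and 10.38 in AP and 8.50, 8.68 and 8.81 in AT of VAT. Both AP groups again lay above both AT groups, and Col6a2 rose by 1.88 (SE 0.14, 3.67-fold) in SAT and 1.71 in VAT, and Col6a3 by 1.56 (SE 0.174, 2.95-fold) and 1.77. Col6a5 rose by 1.24 (SE 0.201, 2.36-fold, adjusted p = 0.000151) in SAT and by 3.46 (SE 0.201, 11-fold, adjusted p = 3.37e-09) in VAT. Col6a6 rose by 1.46 (SE 0.126, 2.75-fold) and 2.43 (SE 0.126, 5.38-fold). Without AT replicate 3 the SAT differences were 2.22 for Col6a1, 1.81 for Col6a3 and 1.39 for Col6a5. Col6a4 stayed near background in all groups, with means from 3.97 to 4.19.

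Type IV chains pair in fixed trimers: Col4a1 with Col4a2 in nearly all basement membranes, Col4a3 with Col4a4 and Col4a5, and Col4a5 with Col4a6. In SAT 5 of the 9 network chains were higher in AP and in VAT 6, with medians of 0.82 and 0.61. Col4a1 read 9.96, 10.09 and 10.18 in AP against 8.87, 9.21 and 9.28 in AT of SAT, and 10.06, 9.64 and 9.94 against 9.33, 9.55 and 9.46 in VAT. The differences were 0.96 (SE 0.134, adjusted p = 3.64e-05) in SAT and 0.43 (SE 0.134, adjusted p = 0.021) in VAT, the VAT call being lost without AP replicate 1, AP replicate 3 or AT replicate 1 of VAT, at adjusted p from 0.0591 to 0.103. Col4a2, which shares its trimer, read 9.31, 9.33 and 9.53 in AP and 8.10, 8.35 and 8.52 in AT of SAT and 9.36, 8.97 and 9.37 in AP and 8.52, 8.79 and 8.55 in AT of VAT. AP was again above AT, by 1.07 and 0.61. Col4a3 and Col4a4 were higher by 0.82 and 0.98 in SAT and by 0.76 and 0.87 in VAT. Col4a5 rose by 1.12 (SE 0.136, 2.17-fold) in SAT and 1.56 (SE 0.136, 2.96-fold) in VAT. The short-chain network collagens Col8a1, Col8a2 and Col10a1 were not called in either depot, Col8a1 giving -0.09 in SAT and 0.40 (adjusted p = 0.0527) in VAT.

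Among FACIT chains, 4 of 9 were higher in AP in each depot, and the class medians of 0.30 and 0.33 were lower than those of the fibrillar, beaded and network chains. Col14a1, which coats fibrils and limits their fusion, read 9.60, 9.57 and 9.40 in AP and 7.56, 7.44 and 8.28 in AT of SAT. In VAT it read 9.20, 9.25 and 9.59 in AP and 7.30, 7.92 and 7.58 in AT of VAT. AP exceeded AT on every array, by 1.76 (SE 0.199, 3.39-fold, adjusted p = 4.02e-06) in SAT and 1.75 (SE 0.199, 3.36-fold, adjusted p = 4.92e-06) in VAT, the SAT value being 2.02 without AT replicate 3. Col12a1, the other large fibril-coating chain, read 6.16, 6.48 and 6.03 in AP and 5.15, 4.54 and 5.23 in AT of SAT and 5.49, 5.86 and 5.92 in AP and 4.82, 4.99 and 4.85 in AT of VAT. It was higher in AP by 1.25 in SAT and 0.87 in VAT, with no overlap. Col16a1 was higher by 0.80 and 0.52. Col9a1 at 0.45 was called in SAT, its arrays overlapping, and Col20a1 at 0.44 in VAT, while Col9a2, Col9a3, Col19a1 and Col22a1 were called in neither. The Col9a1 call was lost without AP replicate 2 or 3 or AT replicate 1 or 2 of SAT (adjusted p 0.0524 to 0.185), and the Col20a1 call without AP replicate 2 or 3 or AT replicate 2 or 3 of VAT (0.0586 to 0.0778).

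The multiplexins, which carry heparan or chondroitin sulphate and a C-terminal fragment released as endostatin from Col18a1, were both higher in AP. Col15a1 read 8.73, 8.91 and 8.69 in AP and 7.40, 7.86 and 8.31 in AT of SAT and 9.18, 8.83 and 8.73 in AP and 8.04, 7.92 and 8.19 in AT of VAT. The differences were 0.92 in SAT (1.15 without AT replicate 3) and 0.86 in VAT. Col18a1 read 7.39, 7.29 and 7.24 in AP and 6.15, 6.24 and 6.64 in AT of SAT and 7.48, 7.48 and 7.81 in AP and 6.74, 7.05 and 7.05 in AT of VAT. The differences were 0.96 and 0.64. AP and AT arrays did not overlap for either chain. Of the remaining 7 chains of this class only Col26a1 in VAT was called, at 0.42 with overlapping arrays and an adjusted p of 0.0589 to 0.189 without AP replicate 1 or 2 or AT replicate 1 or 2 of VAT (0.0507 without AP replicate 2 of SAT), and the transmembrane chains Col13a1, Col17a1, Col23a1 and Col25a1 lay between -0.13 and 0.34. Over all classes 14 of the 44 chains were called in none of the 5 contrasts.

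The second question was how the depots differ. In AP, 5 chains were higher in VAT and 7 lower, 27.3% of the 44, where 5.64% of all genes were called, 3.03% higher and 2.60% lower. In AT, 5 were higher and 5 lower, 22.7%, against 4.55% of all genes, 2.80% higher and 1.75% lower. Arrays of the depots did not overlap for 8 chains higher and 10 lower in AP, where the shares of all genes were 9.87% and 10.5% (20.4% together), and for 8 higher and 5 lower in AT, where they were 10.9% and 7.26% (18.1% together). The medians over the chains were -0.07 in AP and 0.02 in AT. The AP and AT comparisons share no arrays, but they too share a common spread and may share animals. All 5 chains lower in AT were among the 7 lower in AP, and 4 chains were higher in both, 80% of each set. The matching overlaps over all genes were not counted here either. The chains that were lower in VAT were 6 fibrillar chains and Col6a3 in AP, and those higher were Col4a5, Col4a6, Col8a1, Col6a5 and Col6a6. Among FACIT chains limma called 0 in either preparation, and at an unadjusted p under 0.05 it gave 1 lower in each. The count lower in AP was 4 without AP replicate 1 or 2 of SAT or AP replicate 2 or 3 of VAT. The count higher in AT was 1 without AT replicate 1 of SAT or AT replicate 3 of VAT and 2 without replicate 2 of either, and the count lower in AT was 3 without AT replicate 2 or 3 of SAT or replicate 1 of VAT.

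**Figure D3:**
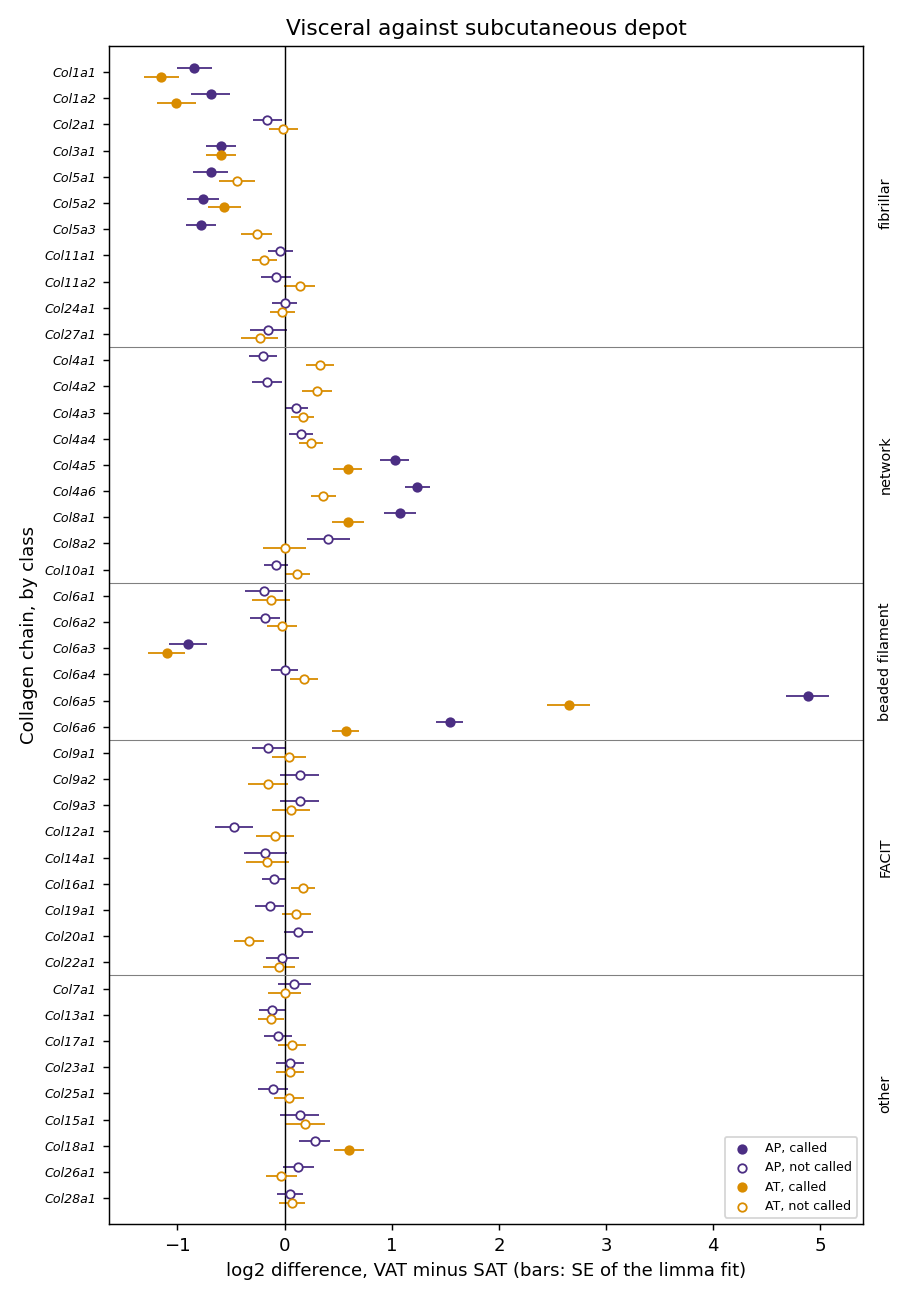
Points give the log2 difference, VAT minus SAT, of each chain in AP and in AT, with the standard error of the limma fit as bars and filled points for called chains. Col6a5 lies at 4.88 in AP and 2.65 in AT, and the called fibrillar chains lie left of 0, between -0.59 and -0.84 in AP.

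Fibrillar chains of types I, III and V were lower in VAT in AP, and 4 of them in AT. Col1a1 in AP fell by 0.84 (SE 0.164, adjusted p = 0.00463), all VAT arrays at or below 11.90 and all SAT arrays at or above 12.65. In AT it fell by 1.15 (adjusted p = 0.000541), and by 0.92 (adjusted p = 0.000574) without AT replicate 3 of SAT. Col5a2 fell by 0.76 (adjusted p = 0.00517) and Col5a3 by 0.78 (adjusted p = 0.00277) in AP, again with no overlap. Col1a2 fell by 0.69 (adjusted p = 0.0363), Col3a1 by 0.59 (adjusted p = 0.0204) and Col5a1 by 0.69 (adjusted p = 0.0223) in AP, and these 3 calls were not stable. Leaving out any 1 AP array took Col1a2 to an adjusted p of 0.059 to 0.142 and Col3a1 to 0.0538 to 0.0819. Col5a1 was lost without AP replicate 1 or 2 of SAT or 2 or 3 of VAT, at 0.0552 to 0.113, and its second probe set gave 0.00. In AT, Col1a2 fell by 1.01 (adjusted p = 0.0036), Col3a1 by 0.59 (adjusted p = 0.0237) and Col5a2 by 0.56 (adjusted p = 0.0489). Col5a1 at -0.44 (adjusted p = 0.185) and Col5a3 at -0.26 (adjusted p = 0.408) were not called in AT, and their arrays overlapped. Without AT replicate 3 of SAT Col3a1 and Col5a2 were not called, at 0.0854 and 0.163. Col3a1 was also lost without AT replicate 2 of SAT or AT replicate 1 of VAT (adjusted p 0.0523 and 0.115), and Col5a2 in AT without any 1 of 10 of the 12 arrays (0.0507 to 0.17). Progenitor markers on these arrays summed to 13.43 to 13.54 in AP of SAT and 12.96 to 13.14 in AP of VAT. The sum did not stand for all 7 markers: by limma 2 were lower in VAT in AP and 0 higher, with a median of -0.08. Pi16 went from 11.48 to 9.86 and Dpp4 from 9.89 to 8.54, while Pdgfra read 11.07 and 11.05 and Pdgfrb 10.44 and 10.45. The part of progenitor markers in the fibrillar values was not tested.

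Type VI chains split by depot. Col6a1 was not called between depots, at -0.19 in AP (95% interval -0.56 to 0.19) and -0.13 in AT, nor was Col6a2, at -0.18 (95% interval -0.48 to 0.11) and -0.02. In AP, though, every VAT array lay below every SAT array for both chains, which held for 10.5% of all genes. Col6a3 was lower in VAT: it read 10.54, 10.66 and 10.44 in AP of SAT and 9.78, 9.53 and 9.64 in AP of VAT, a fall by 0.90 (adjusted p = 0.00439). In AT it read 8.70, 8.78 and 9.48 in SAT and 7.64, 8.04 and 7.97 in VAT, a fall by 1.10 (adjusted p = 0.00125), and by 0.86 (adjusted p = 0.0014) without AT replicate 3 of SAT. Col6a5 and Col6a6 went the other way. Col6a5 read 5.91, 6.70 and 5.72 in AP of SAT and 10.92, 11.06 and 10.99 in AP of VAT. The VAT arrays were more than 4 units above every SAT array, a difference of 4.88 (SE 0.201, 29.4-fold, adjusted p = 2.35e-09). In AT it read 4.59, 4.84 and 5.19 in SAT and 7.47, 7.53 and 7.58 in VAT, a difference of 2.65 (6.29-fold, adjusted p = 1.18e-06). The order of Col6a5 was therefore AP of VAT, AT of VAT, AP of SAT and AT of SAT, with no overlap between neighbours. Col6a6 read 7.89, 7.63 and 7.67 in AP of SAT and 9.30, 9.13 and 9.38 in AP of VAT, a difference of 1.54 (SE 0.126, 2.91-fold, adjusted p = 1.33e-06), with no overlap. In AT it read 6.09, 6.19 and 6.53 in SAT and 6.82, 6.77 and 6.94 in VAT, a difference of 0.57 (adjusted p = 0.015). The AT call of Col6a6 was lost without AT replicate 1 or 2 of SAT or AT replicate 3 of VAT, at an adjusted p of 0.0556 to 0.0832.

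Within an array, the log2 distance between 2 chains of 1 monomer family removes anything that shifts both alike. From SAT to VAT the distance from Col6a1 to Col6a3 changed by -0.71 in AP and -0.97 in AT, that to Col6a5 by 5.07 and 2.79, and that to Col6a6 by 1.73 and 0.71. The arrays of the depots did not overlap in any of these, and each had an exact 2-sided permutation p of 0.1, the smallest that 3 against 3 allows (adjusted 0.16 over 16 such tests). Col1a1 against Col1a2, which changed by only -0.15 in AP and -0.14 in AT, reached the same exact p of 0.1. Col6a2 against Col6a1 changed by 0.00 in AP and 0.11 in AT (exact p = 1 and 0.4). These are unequal changes between chains, and do not show which chain stayed put.

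**Figure D4:**
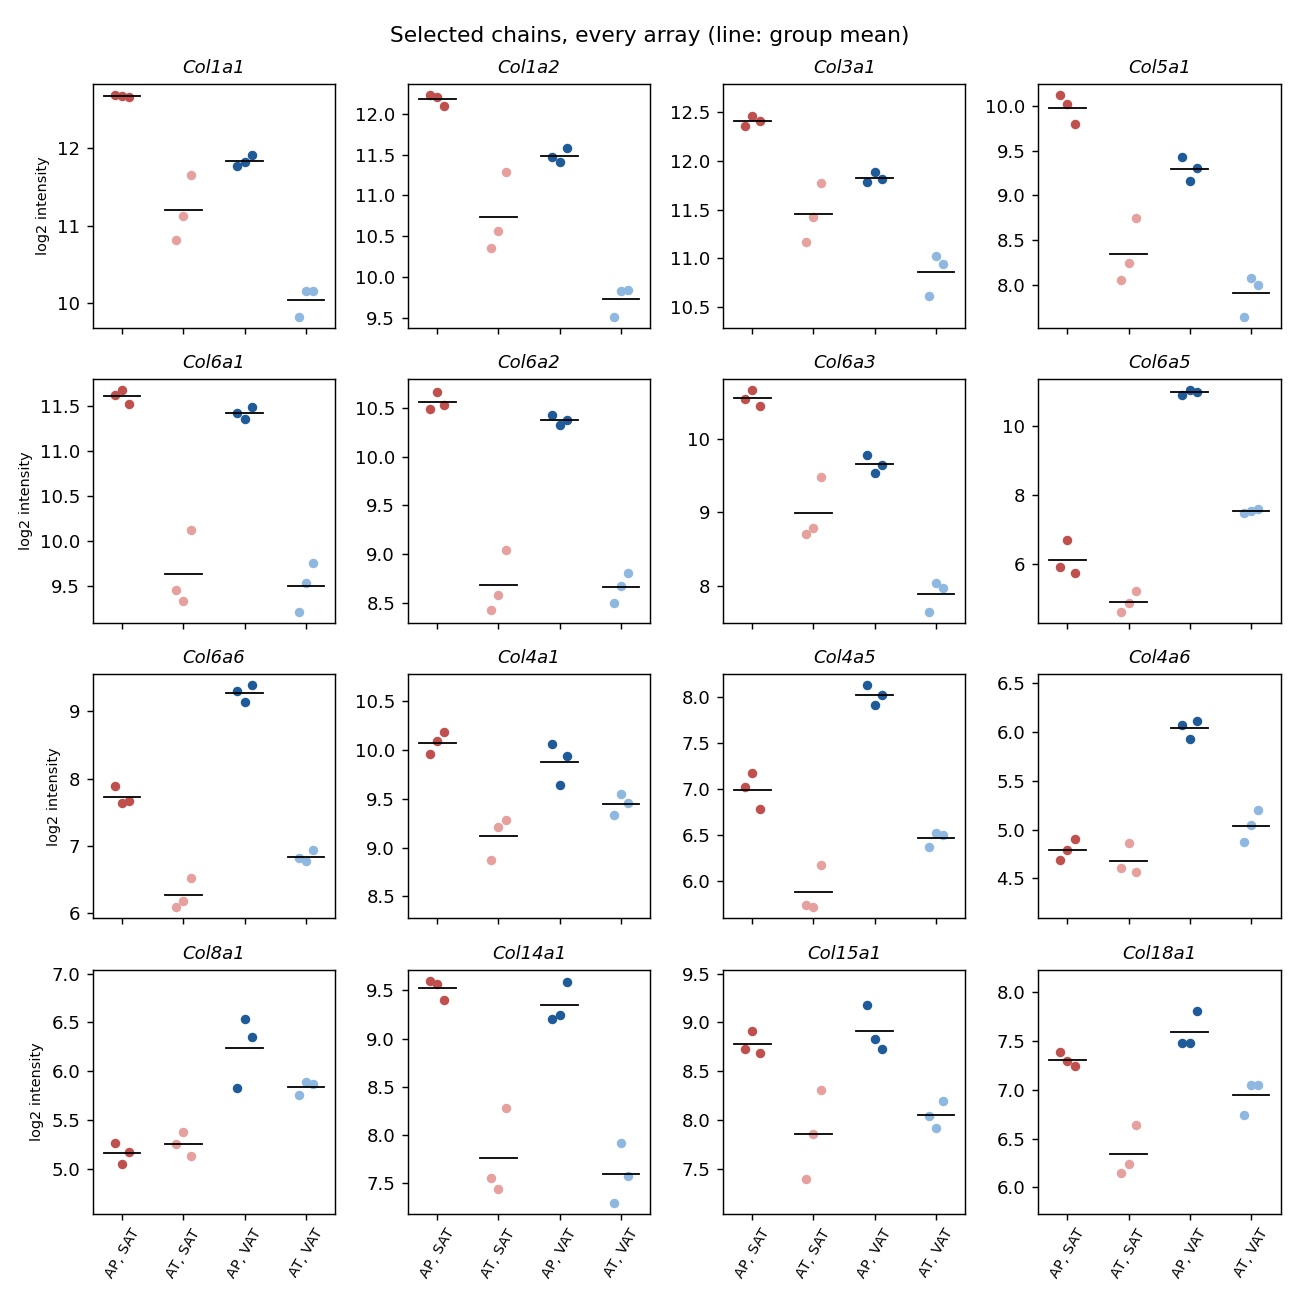
Each panel is 1 of 16 chains, each point 1 array on the log2 scale and each line the mean of a group of 3. The AP arrays of VAT lie apart from the other groups for Col6a5, Col6a6, Col4a5 and Col4a6, while for Col6a1 and Col6a2 both AP groups lie together above both AT groups.

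Mesothelial cells line visceral fat, and their markers moved with this depot difference. All 7 markers were higher in VAT, in AP by a median of 3.63 and in AT by 3.28. Their summed level ran from 12.05 to 12.54 in AP of VAT and from 11.51 to 11.82 in AT of VAT, against 8.05 to 8.56 in AP and 8.11 to 8.37 in AT of SAT, and none of the 7 was under 4.10 in any group. Depot and mesothelial signal cannot be told apart here, and the part of mesothelial cells in the Col6a5, Col6a6, Col4a5, Col4a6 and Col8a1 values was not tested.

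Col6a4, Col6a5 and Col6a6 lie side by side on mouse chromosome 9, on the minus strand, with 132558 bases between the starts of Col6a6 and Col6a5 and 136048 between those of Col6a5 and Col6a4 in the RefSeq annotation of GRCm38.p6. Their windows from 250 bases before to 50 after the annotated start are shown because 2 of these neighbours changed between depots and Col6a4 did not leave background. The windows are chr9:105828036-105828335 for Col6a6, chr9:105960594-105960893 for Col6a5 and chr9:106096642-106096941 for Col6a4, each printed 5′ to 3′ on the minus strand, with capitals for matches on either strand to the TATA box (TATAAA), the CCAAT box, the GC box (GGGCGG) or an E-box (CAGCTG), none of which overlap here.
Col6a6: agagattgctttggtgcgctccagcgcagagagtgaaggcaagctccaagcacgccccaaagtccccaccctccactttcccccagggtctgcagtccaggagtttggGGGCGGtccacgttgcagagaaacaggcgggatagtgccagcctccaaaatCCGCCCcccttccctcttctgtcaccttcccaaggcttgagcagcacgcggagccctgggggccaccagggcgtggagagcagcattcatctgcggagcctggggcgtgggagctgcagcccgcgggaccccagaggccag
Col6a5: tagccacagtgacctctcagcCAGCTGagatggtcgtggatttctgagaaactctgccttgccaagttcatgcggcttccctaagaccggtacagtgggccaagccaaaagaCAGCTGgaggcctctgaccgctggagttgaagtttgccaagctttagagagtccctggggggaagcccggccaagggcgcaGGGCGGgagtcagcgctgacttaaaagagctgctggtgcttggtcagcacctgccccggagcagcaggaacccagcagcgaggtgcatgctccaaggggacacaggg
Col6a4: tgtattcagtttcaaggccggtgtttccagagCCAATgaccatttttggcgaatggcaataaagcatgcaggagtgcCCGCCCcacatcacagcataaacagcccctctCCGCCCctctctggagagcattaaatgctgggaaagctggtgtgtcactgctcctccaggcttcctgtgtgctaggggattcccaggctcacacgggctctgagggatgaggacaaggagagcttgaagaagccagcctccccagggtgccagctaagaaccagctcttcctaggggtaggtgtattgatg
The Col6a5 window held 2 CAGCTG and 1 GGGCGG match, that of Col6a6 2 GGGCGG matches and that of Col6a4 1 CCAAT and 2 GGGCGG matches. A match is a run of letters in this window and no evidence of binding.

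Network chains differed between depots in Col4a5, Col4a6 and Col8a1. Col4a5 read 7.02, 7.18 and 6.78 in AP of SAT and 8.13, 7.92 and 8.03 in AP of VAT, a difference of 1.03 (SE 0.136, 2.05-fold, adjusted p = 0.00015). In AT it differed by 0.59 (adjusted p = 0.0194). Col4a6, its partner in the basement membrane of smooth muscle and some epithelia, read 4.69, 4.79 and 4.90 in AP of SAT, 4.61, 4.86 and 4.57 in AT of SAT, 6.07, 5.93 and 6.11 in AP of VAT and 4.87, 5.05 and 5.20 in AT of VAT. Only the AP arrays of VAT reached 5.93 or more. The depot difference was 1.24 (SE 0.117, 2.37-fold, adjusted p = 5.58e-06) in AP and 0.36 (adjusted p = 0.111) in AT. Col8a1, a chain of the short network of vessel walls and eye, read 5.26, 5.05 and 5.17 in AP of SAT and 5.83, 6.53 and 6.35 in AP of VAT, a difference of 1.08 (SE 0.148, 2.11-fold, adjusted p = 0.000232), and 0.59 (adjusted p = 0.0335) in AT. Col4a1, at -0.20 in AP (95% interval -0.48 to 0.09) and 0.33 in AT, and Col4a2, at -0.16 and 0.30, were not called between depots. Between SAT and VAT the distance of Col4a5 from Col4a1 changed by 1.23 in AP and 0.26 in AT, each with an exact p of 0.1, and that of Col4a6 from Col4a5 by 0.21 and -0.23, each with an exact p of 0.4. Of the other chains Col18a1 was higher in VAT in AT, by 0.60 (adjusted p = 0.022). The AT calls of these chains were not firm: Col4a5 and Col18a1 were lost without AT replicate 1 or 2 of SAT or 2 or 3 of VAT (adjusted p 0.0606 to 0.0959 and 0.0734 to 0.115), and Col8a1 without any 1 AT array other than replicate 2 of SAT (0.0661 to 0.101). Mural markers were higher in VAT for 2 of 8 genes in AP, with a median of 0.38, and epithelial markers for 2 of 5 with a median of 0.11. Of all genes 3.03% were higher. The 2 epithelial genes were Krt8, from 6.33 to 7.09, and Krt18, from 5.45 to 6.37. Cdh1 went from 5.46 to 5.23 and Krt14 from 4.29 to 4.40, and Epcam lay under 4.10 in all groups. In AT 2 of the 8 mural markers were higher and 2 lower, with a median of -0.28. There 2 of the 5 epithelial markers were higher, with a median of 0.01, against 2.80% of all genes higher and 1.75% lower. The part of mural and epithelial cells in the network chain values was not tested.

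Col4a5 and Col4a6 are a head-to-head pair on chromosome X, as Col4a1 and Col4a2 are elsewhere, their starts lying 1343 and 21 bases apart. The windows of the first pair are shown because both chains were higher in AP of VAT than in AP of SAT, at chrX:141474027-141474326 on the minus strand for Col4a6 and chrX:141475169-141475468 on the plus strand for Col4a5, with the same build and capitals.
Col4a6: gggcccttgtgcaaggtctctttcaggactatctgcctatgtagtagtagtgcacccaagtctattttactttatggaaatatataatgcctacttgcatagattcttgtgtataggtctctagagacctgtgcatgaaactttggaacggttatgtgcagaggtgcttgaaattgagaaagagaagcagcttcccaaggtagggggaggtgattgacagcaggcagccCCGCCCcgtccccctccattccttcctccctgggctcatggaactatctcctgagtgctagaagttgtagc
Col4a5: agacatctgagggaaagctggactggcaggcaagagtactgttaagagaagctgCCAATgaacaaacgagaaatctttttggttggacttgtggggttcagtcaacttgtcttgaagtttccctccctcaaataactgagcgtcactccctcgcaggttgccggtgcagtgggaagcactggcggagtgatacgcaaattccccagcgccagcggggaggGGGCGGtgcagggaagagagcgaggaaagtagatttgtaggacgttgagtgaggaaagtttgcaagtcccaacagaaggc
The Col4a6 window held 1 GGGCGG match, and that of Col4a5 1 CCAAT and 1 GGGCGG match. A window was given for 35 of the 44 chains, 38 windows in all. GGGCGG was found in 23 of these 38 (60.5%), and in 35.7% of 32851 windows of the same length over all genes. The median G and C content of all windows was 52.7%. It was 65% for Col6a6, 60% for Col6a5, 55% for Col6a4, 48.3% for Col4a6 and 52.7% for Col4a5. The part of base content in the GGGCGG shares was not tested. CCAAT was found in 34.2% of the collagen windows against 37.4%, TATAAA in 13.2% against 13.6% and CAGCTG in 18.4% against 16.3%. There were 8 pairs of collagen genes with no protein-coding gene between them. Between depots in AP, Col6a5 and Col6a4 differed by 4.88 and 0.00, and the neighbours Col3a1 and Col5a2 by -0.59 and -0.76.

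The third question was whether the depot difference depended on the preparation. The interaction compares the VAT minus SAT value of AP with that of AT, and was called for 3 chains, all higher in AP, with 0 lower (3 lower at an unadjusted p under 0.05 in limma), 6.82% of the 44 against 2.15% of all genes (0.987% higher and 1.16% lower). These were Col6a5 at 2.23 (SE 0.284, adjusted p = 0.00074), Col6a6 at 0.97 (SE 0.179, adjusted p = 0.0101) and Col4a6 at 0.88 (SE 0.166, adjusted p = 0.0109). The Col6a5 value was 2.07 (adjusted p = 0.00103) without AT replicate 3 of SAT. Col4a6 outside AP of VAT, with means of 4.68 to 5.04, and Col6a5 in AT of SAT, with a mean of 4.87, were dim, and the part of low signal was not tested. On the log2 scale the AP and AT differences of Col4a5, at 1.03 and 0.59, and of Col8a1, at 1.08 and 0.59, were not told apart, with interactions of 0.44 (adjusted p = 0.323) and 0.49 (adjusted p = 0.314). Nor were those of Col1a1, at 0.31, or Col5a3, at -0.52 (adjusted p = 0.253). Among the marker lists, the interaction median was 0.36 for mesothelial (1 of 7 called), 0.52 for mural (2 of 8) and 0.15 for endothelial genes (2 of 7), all of the called ones higher in AP, and their part in these values was not tested.

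The machinery that makes and matures collagen was followed through 3 lists. Folding and modification genes hydroxylate, glycosylate and chaperone the chains in the endoplasmic reticulum. Of 22 measured of 24 listed, 19 were higher in AP in SAT and 17 in VAT and 0 were lower in either by limma (0 in SAT and 1 in VAT at an unadjusted p under 0.05), with medians of 0.89 and 0.70. Of all genes, 16.1% and 15.8% were higher. The largest rises were Creb3l1, a membrane-bound transcription factor of collagen-secreting cells, at 2.28 and 1.81, and the prolyl 3-hydroxylase family gene P3h3 at 1.72 and 1.61. Between depots in AP, Plod2, the lysyl hydroxylase of telopeptides, was higher in VAT by 1.06, while P4ha2, a prolyl 4-hydroxylase subunit, fell by 0.95 and Serpinh1, the collagen chaperone HSP47, by 0.61. In AT 1 gene of this list was called, P3h4 at 0.71. Of all genes 5.64% were called between depots in AP and 4.55% in AT.

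Propeptide cleavage and crosslinking genes cut procollagen and tie fibrils through lysine aldehydes. Of 11 measured of 13 listed, 9 were higher in AP in each depot and 0 lower by limma (0 in SAT and 1 in VAT at an unadjusted p under 0.05), with medians of 1.73 in SAT and 1.56 in VAT, where 16.1% and 15.8% of all genes were higher. Bmp1, the C-proteinase, was higher by 2.14 and 1.82, and the crosslinking enzyme gene Loxl3 by 2.08 and 1.90. In AP, 5 of the 11 were lower in VAT, against 2.60% of all genes: Pcolce2, an enhancer of the C-proteinase, fell by 1.09, the C-proteinase relative Tll1 by 0.85 and the lysyl oxidase family gene Loxl4 by 0.82 as the largest falls. Adamts3, an N-proteinase, was higher in VAT by 1.04 in AP and 0.87 in AT. Pcolce2 in AT fell by 1.08. The depot difference of Tll1 and Loxl4 depended on the preparation, with interactions of -1.12 (adjusted p = 0.0329) and -0.95 (adjusted p = 0.0257).

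Collagen receptors gave a mixed picture. Of 13 measured of 14 listed, 7 were higher and 3 lower in AP in SAT, and 6 higher and 2 lower in VAT, with medians of 0.94 and 0.25. All counts on this list include Fap, which is a protease and not a receptor. Of all genes 16.1% were higher and 16.3% lower in SAT, and 15.8% and 16.8% in VAT. Itga11, an integrin of fibroblasts that binds type I collagen, was higher by 2.53 and 2.30, and Antxr1, a type VI and type I binding receptor, by 2.23 and 2.34. Mrc2, the endocytic receptor that takes up cleaved collagen, was higher by 2.16 and 1.79. Lair1, an inhibitory receptor of leukocytes, fell by 0.87 in SAT and by 0.75 in VAT, where macrophage markers were lower too, and the part of those cells was not tested. Adgrg1, a receptor of Col3a1, fell by 2.32 in SAT and by 0.57 in VAT. Between depots in AP, 2 of the 13 were higher in VAT and 3 lower, against 3.03% and 2.60% of all genes. In AT 1 was higher and 1 lower, against 2.80% and 1.75%. The largest changes in AP were Adgrg1 at 1.42 and Itga2 at -1.02, and Mrc2 gave -0.66. Ddr1, the discoidin receptor typical of epithelia, was higher in VAT by 0.95 in AP and 1.37 in AT. Fap, a surface protease of activated fibroblasts, fell by 0.80 and 1.15. Adgrg1 was not called in AT, at -0.33 (adjusted p = 0.319). Its interaction of 1.75 (adjusted p = 0.000638) was the only 1 called on this list.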

How the data were processed

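RNA from 12 samples was labelled with biotin and hybridised to Affymetrix mouse arrays. The deposited log2 intensities were made by the authors with RMA in Affymetrix Expression Console 1.3.0.187, per the submitters' processing notes (RMA output is on base 2, which the span of 1.69 to 13.48 fits). RMA sets the single probes of all arrays to 1 distribution before it summarises them by probe set, so a change shared by most genes cannot be seen. No further normalization or filter was applied. Of 41345 probe sets, 23521 were annotated to 1 gene, 1814 to several and 16010 to none. Only the first were used, with the brightest probe set of each of 22180 genes. The model, fitted in R 4.3.3 by limma 3.58.1, had a mean for each of the 4 groups and a common spread, with 8 residual degrees of freedom and a prior worth 6.84. Its moderated tests were 2-sided, and the code was tested on simulated data. Chain distances within arrays were tested by exact permutation. With 3 arrays a group, the number of arrays limits the precision.

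By rule, array values are given for 17 major chains and for the called chains with the largest changes; other called chains may be named. Of the pathway lists, up to 3 called genes a direction are named. The chains, lists and tests were chosen with earlier results of these data known. Promoter windows were taken from RefSeq (GRCm38.p6). A listed FACIT chain, Col21a1, was not analysed here. Replicate numbers were not used as pairs in the main model, since the animals behind them are not stated. Alternatives were blocks, array weights, fits on the arrays compared, other normalizations, housekeeping scaling, a filter on dim genes, the mean of probe sets, a demand of a difference of at least 1, and each array left out.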

Additional observations from a re-analysis of the deposited data

Results flagged for a closer look

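The depot difference of 3 chains was larger in the progenitor preparation than in whole tissue, by the limma test of the difference itself. For Col6a5 the AP difference exceeded the AT difference by 2.23 on the log2 scale (SE 0.284, adjusted p = 0.00074), with VAT above SAT by 4.88 in AP and 2.65 in AT. For Col6a6 it was 0.97 (SE 0.179, adjusted p = 0.0101), from 1.54 and 0.57. For Col4a6 it was 0.88 (SE 0.166, adjusted p = 0.0109), from 1.24 and 0.36. Some of these groups were dim beside array medians of 4.49 to 4.67. Col4a6 averaged 4.79 in AP of SAT, 4.68 in AT of SAT and 5.04 in AT of VAT, and Col6a5 averaged 4.87 in AT of SAT. The part of low signal in these interactions was not tested. VAT was higher on all 3 arrays of each preparation for all 3 chains. All 3 kept their call whichever array was left out.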

How the results depend on the processing

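Of 75 calls over the chains and contrasts, 58 held under every alternative other than the demand of a difference of at least 1, with no call reversed. Those 58 include all 3 interactions, 21 of 24 chains higher in AP in SAT, 21 of 26 in VAT, 9 of 12 depot calls in AP and 4 of 10 in AT (Col1a1, Col1a2, Col6a3 and Col6a5). Demanding a difference of at least 1 left 14 chains higher in AP in SAT and 11 in VAT, 0 lower in VAT in AP, 1 higher and 3 lower in AT, and 1 interaction. Housekeeping scaling gave 43 chains higher in AP in VAT, 4 lower in VAT in AP, 1 higher in AT and 6 interactions, and turned Col10a1 in VAT to 0.38 from -0.05. It moved the median of all genes from 0.03 to 0.10 and 0.47 for AP against AT in SAT and VAT, and from 0.00 to 0.21 and -0.15 for the depots in AP and AT and 0.37 for the interaction. The share of called genes that were higher went to 56.4%, 90.3%, 85.5%, 28.3% and 95.3%, from 49.7%, 48.4%, 53.8%, 61.5% and 46%. Over all genes it called 16468 in VAT (7239 reported), 2071 for the depots in AP (1250) and 2266 interactions (476). Over all genes the demand of at least 1 left 2202 and 1964 calls for AP against AT (7186 and 7239 reported), 370 and 251 for the depots (1250 and 1009) and 221 interactions. All-gene depot calls in AT went to 601 with only the arrays compared and 660 without AT replicate 1 of SAT, and interactions to 264 to 309 without AP replicate 1 or 2 of SAT, AT replicate 1 of SAT or AP replicate 2 of VAT. Fitting only the arrays compared gave 2 chains higher and 3 lower in VAT in AT, with fewer samples for the spread. Leaving out 1 array gave 21 to 26 chains higher in AP in SAT, 22 to 27 in VAT, 5 higher and 4 to 7 lower between depots in AP, 1 to 5 higher and 3 to 5 lower in AT, and 3 interactions. The replicate block as a fixed factor gave 23 chains higher in AP in SAT, 25 in VAT, 5 higher and 7 lower in AP, 5 and 5 in AT and 3 interactions, and as a random effect 24, 25, 5 and 7, 5 and 4, and 3, with Col5a2 lost in AT (adjusted p = 0.0652). Whether same-numbered samples share animals is not stated. Their deviations from group means correlated at -0.28 to 0.16, with 3 of 18 pairs over 0.1, which cannot decide it. Other causes of lost calls were not tested. Chains near 4.10, such as Col6a4, Col10a1 and Col11a1 (group means of 4.04 to 4.43), are limited by signal over background. Other called chains were dim in AT, such as Col12a1, at 4.97 in SAT and 4.89 in VAT, and Col4a4, at 4.84 and 5.10. The part of low signal in their values was not tested.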
